A study of Mus musculus with 11 samples.

Results

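Blood and lymphatic endothelial genes were followed in imiquimod-treated mouse skin with and without Trex2, an exonuclease gene of keratinocytes. The set held 34 genes chosen by symbol, of 38406 in the deposited table: 25 pan-endothelial genes, 5 genes used as lymphatic endothelial markers and 4 adhesion genes that inflammation induces in endothelium. All 34 symbols were found. Mmrn1, a lymphatic matrix glycoprotein gene, had 0 reads in all 11 libraries, so 33 members were tested. Each library was poly(A) RNA from the pulverized back skin of a female C57BL/6 mouse aged 8 to 10 weeks. Wild-type mice (5 libraries, replicates 2 to 6) were compared with Trex2 knockout mice (6 libraries, replicates 7 to 12), which lack the gene in the whole animal. Both groups were shaved and had received the same treatment, 125 mg of cream with 5% imiquimod (Aldara) on the back each day for 4 days, and skin was taken 24 hours after the last dose. Imiquimod activates Toll-like receptor 7, and the cream causes a psoriasis-like inflammation. Untreated skin was not analysed here, so the values compare inflamed skin with inflamed skin.

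Endothelial cells line blood and lymphatic vessels. Blood endothelium shares a set of surface, junctional and transcription factor genes. Lymphatic endothelium is set apart by Prox1, the transcription factor that specifies it, and by Flt4, the receptor for VEGF-C and VEGF-D. In inflamed skin, endothelium displays selectins, on which leukocytes roll, and ligands for leukocyte integrins, on which they arrest. Several members are not specific to endothelium in skin: Cd34 is also carried by hair follicle stem cells and fibroblasts, Pdpn by fibroblasts and activated keratinocytes, Lyve1 by some macrophages, Pecam1 by leukocytes, Selp by platelets and Icam1 and Vcam1 by other stromal or immune cells.

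Start-site sequences are shown for a pair of endothelial selectins that differ in level and for a pair of pan-endothelial receptors, because ETS factors such as Erg bind near many endothelial genes. RefSeq promoter windows (GRCm38.p6, 250 bases before to 50 bases after the start) matched 19 of the 34 members. Capitals mark AGGAAG, a fixed spelling of the ETS motif (called the ETS core here), or CTTCCT where it lies on the opposite strand.

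Sele: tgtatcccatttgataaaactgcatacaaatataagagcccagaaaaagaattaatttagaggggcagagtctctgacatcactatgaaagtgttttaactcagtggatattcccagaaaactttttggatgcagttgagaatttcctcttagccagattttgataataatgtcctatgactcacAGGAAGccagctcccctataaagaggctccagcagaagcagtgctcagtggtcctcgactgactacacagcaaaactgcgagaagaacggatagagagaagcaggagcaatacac
Selp: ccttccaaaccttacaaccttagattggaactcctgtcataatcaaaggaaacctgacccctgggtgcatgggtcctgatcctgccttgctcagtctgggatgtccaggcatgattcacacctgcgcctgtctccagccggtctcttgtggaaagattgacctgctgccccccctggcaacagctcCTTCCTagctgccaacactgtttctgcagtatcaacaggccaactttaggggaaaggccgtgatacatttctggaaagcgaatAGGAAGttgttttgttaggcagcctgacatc
Tie1: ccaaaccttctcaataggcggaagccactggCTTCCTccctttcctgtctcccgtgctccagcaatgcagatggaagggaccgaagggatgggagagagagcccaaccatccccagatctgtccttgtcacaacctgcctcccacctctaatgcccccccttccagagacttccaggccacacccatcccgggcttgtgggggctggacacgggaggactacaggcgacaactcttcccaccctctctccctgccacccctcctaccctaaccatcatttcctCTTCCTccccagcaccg
Kdr: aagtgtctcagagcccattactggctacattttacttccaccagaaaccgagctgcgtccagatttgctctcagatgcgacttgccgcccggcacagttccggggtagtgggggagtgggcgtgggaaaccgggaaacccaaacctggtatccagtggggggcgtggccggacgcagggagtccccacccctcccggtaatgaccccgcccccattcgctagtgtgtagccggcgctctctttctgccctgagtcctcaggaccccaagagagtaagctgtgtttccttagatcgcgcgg

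The E-selectin window (Sele, chr1:164047984-164048283, plus strand) held 1 ETS core, from 65 to 60 bases before the start. The P-selectin window (Selp, chr1:164115014-164115313, plus strand) held 2, from 64 to 59 bases before the start on the opposite strand and from 20 to 25 bases after it. In the Tie1 window (chr4:118489800-118490099, minus strand) both of the 2 cores lay on the opposite strand, and the Kdr window (chr5:75978406-75978705, minus strand) held 0. Other spellings of the ETS motif were not searched, so the 0 of Kdr holds for AGGAAG only. The Kdr window does hold the shorter letters GGAA. The 19 matched genes had 24 windows between them. The core was present in 10 of the 19 genes. Counted by window, it was in 11 of the 24 and in 35.35% of 32851 promoter windows of the same length. A fixed NF-kB pattern was in 0 of the 19 and in 1.63% of all windows. Other spellings of the NF-kB motif were not searched, so the 0 holds for that pattern only. Whether the Sele window or the others hold an NF-kB site was not tested. The GATA factor motif, spelled AGATAA, was found in Erg and Tek (11.18% of all windows). The SOX factor motif, spelled ACAATG, was found in Erg and Mmrn1 (12.57%). Motifs were searched on both strands, the ETS and NF-kB motifs both hold the letters GGAA, and a match is a description of the sequence only.

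Levels are DESeq2-normalized counts, in which each library's reads are divided by its size factor. Depth ran from 1208896 to 5853454 reads over wild-type mice and from 3125366 to 15557862 over knockout mice, and 3 reads corresponded to 1.04 to 13.5 normalized counts. Trex2 stood at 1125 to 2196 in wild-type and at 0.794 to 3.47 in knockout libraries. Knockout replicates 9 and 12 stood apart: their summed level of 8 keratinocyte markers was 223166 and 202004, against 42024 to 113089 over the wild-type and 70605 to 122448 over the other 4 knockout libraries. All 8 keratinocyte markers had a higher mean log2 level in knockout skin (median log2 fold change 1.09), all 8 leukocyte markers lower (median −0.47) and 7 of 8 fibroblast markers lower (median −0.25). Mural cell markers were 4 higher and 5 lower of 9 tested (median −0.24). Acta2, among the 5 lower, was at 1060 ± 109.7 in wild-type and 715 ± 120.5 in knockout skin (SD, n = 5 and 6). Notch3, among the 4 higher, was at 367 ± 62.8 and 490 ± 100.2. Adipocyte markers (median −0.22, 5 of 6 lower), skeletal muscle markers (−0.27, 6 of 6 lower) and the 4 platelet markers tested (−0.29, 2 lower) had medians below 0 as well. Fits with keratinocyte or fibroblast markers as a covariate are given below as values. The part of these marker differences in the endothelial values was not itself tested. In bulk skin, fewer endothelial cells, less RNA per endothelial cell and a larger share of RNA from other cells cannot be told apart.

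Of the 25 pan-endothelial genes, 24 had a lower mean log2 level in knockout skin, and none of the 33 members tested passed the test. The pan-endothelial log2 fold changes had a median of −0.43 and ranged from −1.31 for Aplnr to 0.22 for Ptprb; among all 13215 genes tested 49.0% were negative and the median was 0.01. The lymphatic genes had a median of −0.10 (3 of 4 tested negative) and the adhesion genes a median of −0.38 (3 of 4 negative). Fold changes are on the log2(normalized count + 1) scale, tested with limma and adjusted over all genes tested. At an adjusted p under 0.05, 0 of 33 members were called, against 0.0151% of all genes. An unadjusted p under 0.05 was reached by 11 pan-endothelial genes and by Pdpn, all lower in knockout, and by 11.5% of all genes in that direction. In no member did every knockout library lie below every wild-type library (1.29% of all genes), or above (1.02%). edgeR called 0 members (0.0227% of all genes lower, 0.00757% higher) and DESeq2 called 1 lower, Aplnr (2.18% of all genes lower, 2.49% higher). DESeq2 gave no adjusted p for 1 pan-endothelial gene, Sox17, and for 1 lymphatic gene.

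**Figure D1:**
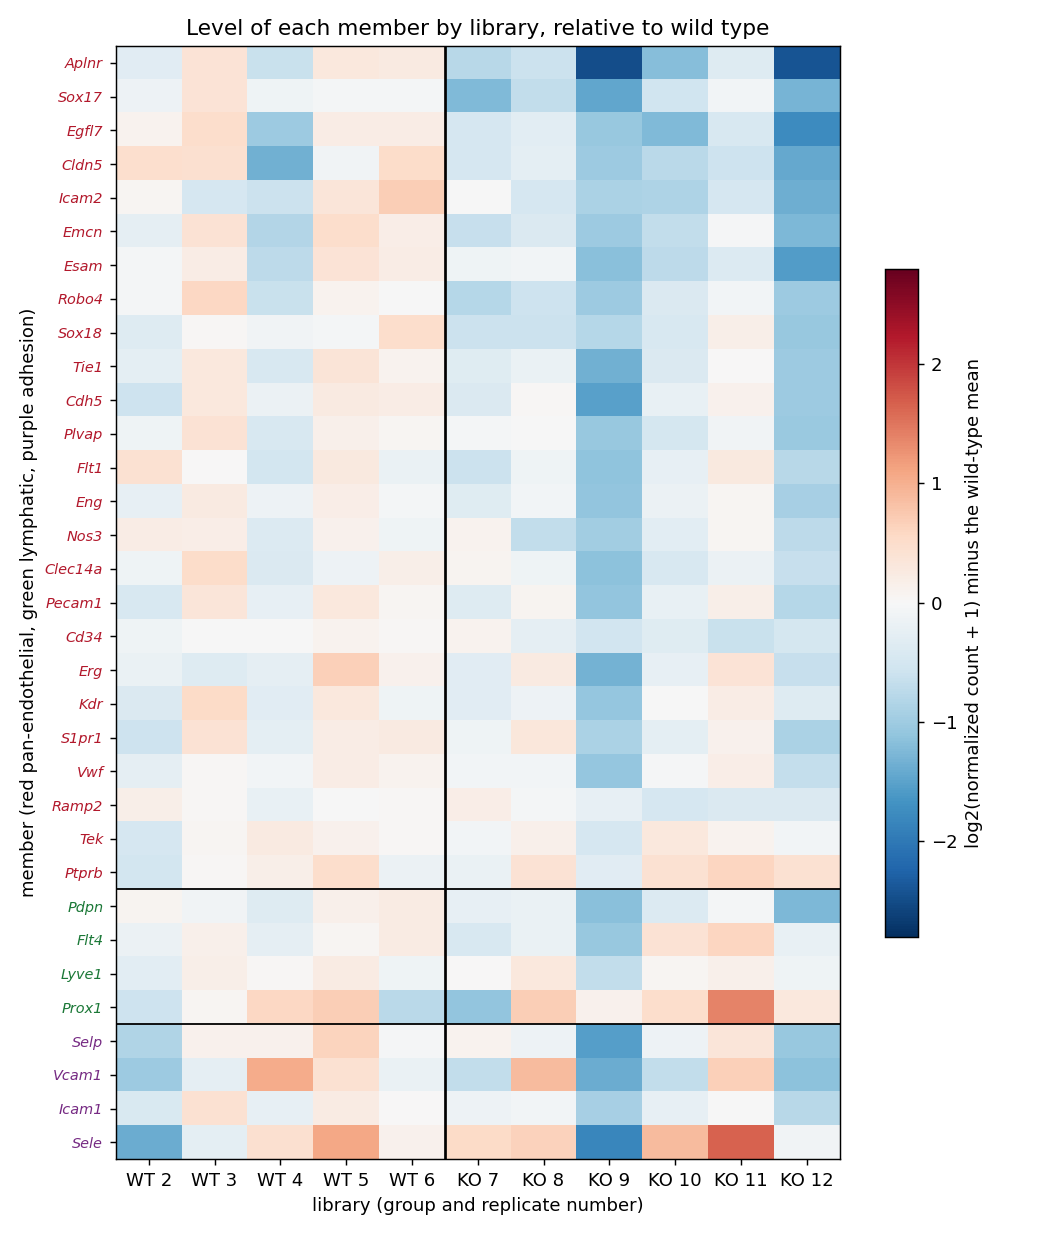
Heat map of log2(normalized count + 1) minus the wild-type mean for the 33 members with reads (rows, gene names in red for pan-endothelial, green for lymphatic and purple for adhesion genes) in the 11 libraries (columns, WT wild type, KO knockout). Blue is lower and red higher than the wild-type mean; the columns of knockout replicates 9 and 12 are the bluest, and Ptprb, Prox1 and Sele show red in several knockout libraries.

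The lower group level was spread unevenly over the mice. Knockout replicate 9 was the lowest of all 11 libraries in 14 of the 25 pan-endothelial genes and replicate 12 in 7; replicate 9 was among the 2 lowest in 22 and replicate 12 in 20. Wild-type replicate 3 was highest in 11, and wild-type replicate 5 in 6. The summed level of the 25 genes ranged from 8271 to 12247 over wild-type mice and from 5134 to 9733 over knockout mice, with 5134 in replicate 9 and 5587 in replicate 12. Within the wild-type group, replicates 4 and 2 had the lowest of these sums (8271 and 9085) and the highest keratinocyte marker sums (113089 and 96588). Without replicates 9 and 12 the pan-endothelial median was −0.19 and 20 of 25 were negative, against 48.5% of all genes. In that fit 3 of the 25 (Egfl7, Sox17 and Aplnr) had an unadjusted p under 0.05, all lower, and 12.5% of all genes had one in either direction. Without the same libraries the lymphatic median was 0.11 and the adhesion median 0.04, each with 1 of 4 genes negative. Another fit took the mean log2 level of the keratinocyte markers in each library as a covariate. Its medians were 0.0034 for pan-endothelial, 0.22 for lymphatic and 0.15 for adhesion genes. Keratinocyte markers were higher in knockout skin, so this fit cannot separate their level from genotype. With fibroblast markers as the covariate the medians were, in the same order, −0.36, 0.12 and −0.04. With log10 depth as the covariate they were −0.28, −0.32 and −0.24. Among wild-type libraries, replicate 4 was lowest in 13 of the 25 and replicate 2 in 11. Without wild-type replicate 4, 5 members were called lower: Aplnr, Egfl7, Cldn5, Emcn and Robo4. That fit called 2.1% of all genes lower and 3.5% higher.

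**Figure D2:**
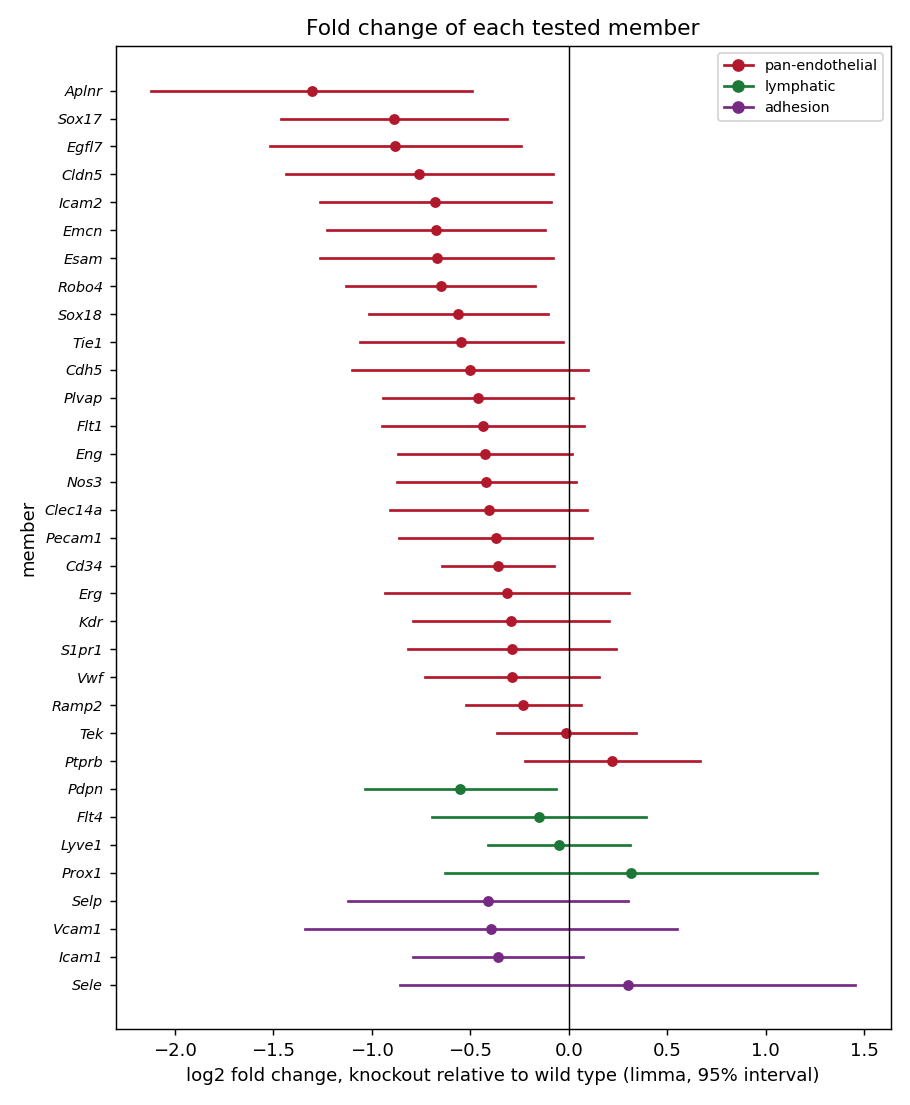
Log2 fold change of each tested member (knockout relative to wild type, limma) with its 95% interval, coloured by gene group. The intervals of 11 pan-endothelial genes and of Pdpn lie below 0, Aplnr is farthest from 0 at −1.31, and Tek, Ptprb, Lyve1, Flt4, Prox1 and the 4 adhesion genes have intervals that include 0.

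Aplnr (chr2:85136225-85139923, plus strand, GRCm38 with GENCODE M21 here and for the genes that follow), the receptor for apelin, which marks veins and sprouting endothelium, had the lowest fold change of any member. Its wild-type levels were 434, 708, 349, 665 and 645 normalized counts in replicates 2 to 6, and its knockout levels ran from 95.3 through a median of 275 to 419.6. Replicates 9 (95.3) and 12 (101) were the lowest, and 4 of 6 knockout mice were under the lowest wild-type mouse. Group means were 560.3 ± 159 and 254 ± 134 (SD, n = 5 and 6), a log2 fold change of −1.31 (SE 0.38, 95% interval −2.12 to −0.49, limma adjusted p = 0.108). DESeq2 gave −1.15 with an adjusted p of 0.0411, and without knockout replicates 9 and 12 limma gave −0.73 (adjusted p = 0.353). Without wild-type replicate 4 it was −1.46 (adjusted p = 0.0496), and over the alternatives the adjusted p ran from 0.0411 to 0.892.

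Genes of the vessel lumen and of the junctions between endothelial cells followed. Egfl7 (chr2:26580014-26593120, plus strand), a secreted regulator of vessel tube formation, stood at 412, 546, 191, 443 and 447 in wild-type and from 114 (median 232) to 312 in knockout libraries, with wild-type replicate 4 inside the knockout range (log2 fold change −0.88, SE 0.30, adjusted p = 0.122). Its exons overlap Agpat2 on the opposite strand and the genes of miR-126, so reads may be shared. Cldn5, the tight junction claudin of endothelium, stood at 254, 253, 72.3, 172 and 265 in wild-type libraries and from 68 (median 115) to 152 in knockout libraries (−0.76, SE 0.31, adjusted p = 0.169). Its wild-type replicate 4 lay near the lowest knockout value. Without that library the values were −1.13 (adjusted p = 0.0361) for Egfl7 and −1.09 (0.033) for Cldn5. Esam, an adhesion molecule of endothelial tight junctions, was at 454 ± 118 against 294 ± 110.0, and Icam2, a constitutive integrin ligand, at 86.5 ± 32.5 against 53.1 ± 17.4. Robo4, a guidance receptor that stabilizes vessels, was at 143 ± 42.6 in wild-type and 89.8 ± 24.3 in knockout skin. The sialomucin gene Emcn, highest in capillaries and veins, was at 208 ± 68.9 and 128 ± 38.9. Fold changes of these 4 genes lay between −0.68 and −0.65 with adjusted p from 0.125 to 0.166. Without wild-type replicate 4, Robo4 (−0.81) and Emcn (−0.88) both had an adjusted p of 0.0455. For Egfl7, Cldn5, Robo4 and Emcn no other alternative gave a call, and their highest adjusted p lay between 0.892 and 0.965.

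The genes most used to identify endothelium had fold changes nearer 0. Cdh5, the adherens junction cadherin of endothelium, stood at 549.9, 1002, 734, 979 and 941 in wild-type and from 283 (median 664) to 891 in knockout libraries. The groups overlapped, with knockout replicates 9 (283) and 12 (407) below all others, and the fold change was −0.50 (95% interval −1.10 to 0.10). For Pecam1, the platelet and endothelial adhesion molecule, wild-type levels of 666, 1137, 766, 1109 and 945 were set against 422 (median 743) to 1018, a fold change of −0.37 (−0.86 to 0.12). Eng, a co-receptor for BMP9 and TGF-beta (exons overlap Fpgs on the opposite strand), had means of 956 ± 138 and 738 ± 221. Plvap, which forms the diaphragms of fenestrae and caveolae, had means of 1466 ± 314 and 1095 ± 342. For Vwf, the clotting factor stored in endothelium, the means were 376 ± 44.9 and 319 ± 93.6. Without knockout replicates 9 and 12, Cdh5 was at −0.12, Pecam1 at −0.08, Eng at −0.13, Plvap at −0.16 and Vwf at 0.0034.

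Cd34 varied least in wild-type skin, with 1069, 1151, 1156, 1244 and 1192 normalized counts (coefficient of variation 5.51%). Its knockout values ran from 752 (median 872) to 1241, and 5 of 6 lay below the lowest wild-type library (−0.36, SE 0.13, adjusted p = 0.142). Its lowest library was knockout replicate 11, while replicates 9 and 12 had 799 and 823. Ramp2, the adrenomedullin receptor partner (exons overlap Vps25), had 4 of 6 knockout libraries below all wild-type libraries, at means of 555 ± 51.5 and 478 ± 90.5. Nos3, the endothelial nitric oxide synthase (exons overlap Atg9b), was at 124 ± 20.6 and 95.2 ± 29.5, S1pr1, the sphingosine 1-phosphate receptor, at 399.7 ± 106 and 333 ± 111, and Clec14a, a C-type lectin of endothelium, at 77.4 ± 19.97 and 58.9 ± 16.7. Adjusted p of these 4 genes ran from 0.236 to 0.478.

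The receptor tyrosine kinases of vessels covered a range of fold changes. Tie1, the orphan partner of Tek, stood at 390.2, 582, 346, 607 and 508 in wild-type and from 187 (median 367) to 477 in knockout libraries (−0.55, SE 0.24, adjusted p = 0.186). Tek, the angiopoietin receptor, stood at 99.8, 144, 163, 151 and 141 and from 100.02 (median 139.9) to 169. The groups covered nearly the same range, and the Tek interval ran from −0.36 to 0.34 around −0.01, a value that turned positive with TMM scaling (0.023) and without wild-type replicate 3 (0.0044), 4 (0.049) or 5 (0.020) or knockout replicate 9 (0.078). Ptprb, the phosphatase that acts on Tek, was the one pan-endothelial gene with a positive fold change. It stood at 127, 185, 203, 254 and 162 in wild-type and from 144 (median 242) to 274 in knockout libraries, and replicate 12 was at 244 (0.22, interval −0.22 to 0.67). Among VEGF-A receptors, Kdr, the main signalling receptor, was at 157 ± 45.5 and 128 ± 35.1 (−0.29), and Flt1, a high-affinity receptor with weak signalling, at 331 ± 82.7 and 251 ± 87.1 (−0.43). Differences between these fold changes were not tested.

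**Figure D3:**
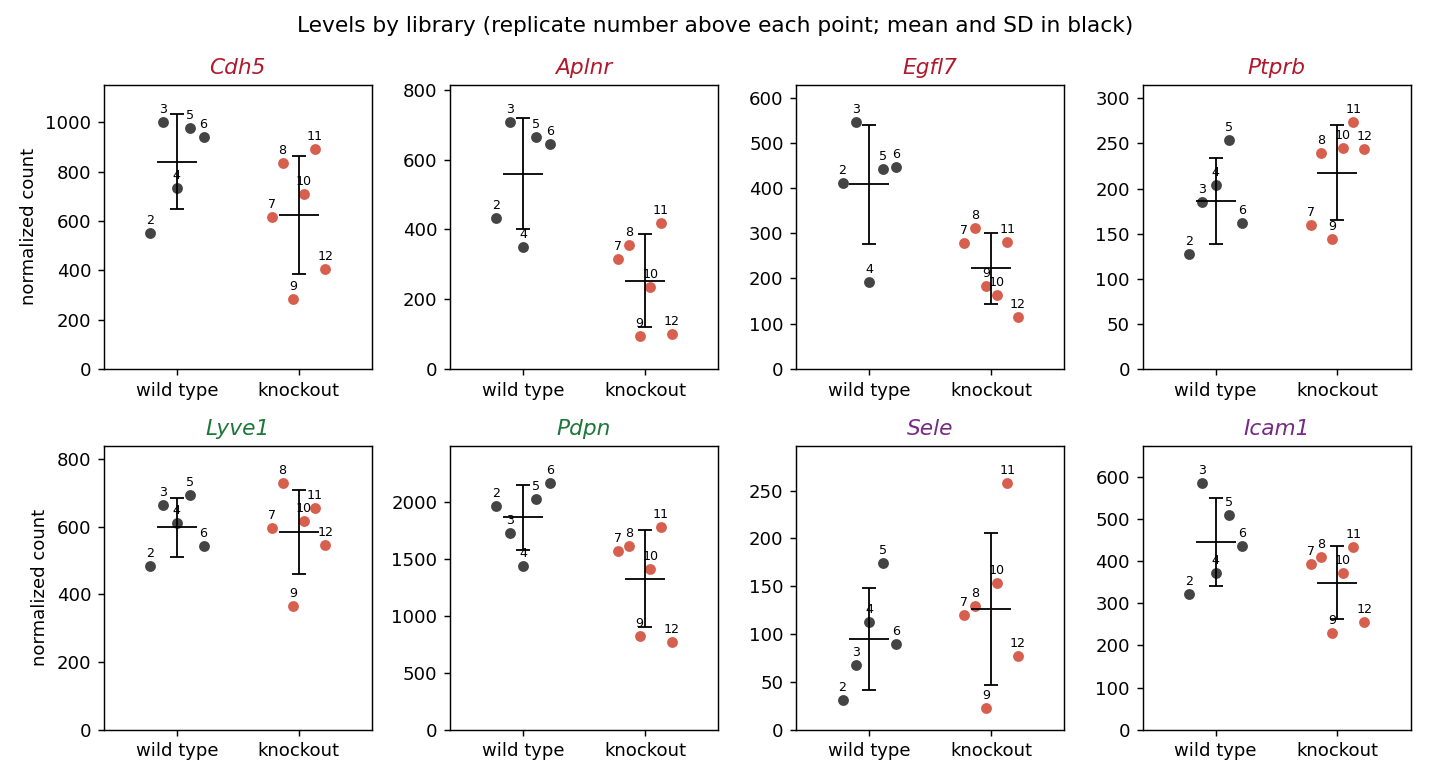
Normalized counts of 8 members by library (vertical axis from 0; black points wild type, red points knockout, replicate number above each point, bars the mean and SD). Knockout replicates 9 and 12 are the lowest points of Cdh5, Aplnr, Pdpn and Icam1, replicate 9 but not 12 is low in Ptprb and Lyve1, and Sele spreads from 22.2 to 258 within the knockout group.

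A wider list of angiogenic ligands and partners, with Notch and ephrin genes beside the ligands of these receptors, was mixed. Of 23 listed, 20 were tested, and 6 had a positive and 14 a negative fold change. The median was −0.42, or −0.07 without knockout replicates 9 and 12. None passed the limma test; 4 higher and 5 lower had an unadjusted p under 0.05, as did 12.9% and 11.5% of all genes. Jag2, a Notch ligand that keratinocytes also make, was at 149.8 ± 49.6 in wild-type and 280.1 ± 77.3 in knockout skin (0.92, SE 0.23). Efnb2, the ephrin of arterial endothelium, was at 149.7 ± 21 and 235 ± 58.2 (0.63, SE 0.17), with every knockout library above every wild-type library (1.02% of all genes). Pgf, a ligand of Flt1, was at 83.8 ± 58 and 25.1 ± 13.6 (−1.67, SE 0.45). Each of the 3 had an adjusted p of 0.108.

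The 3 pan-endothelial transcription factors, Sox17, Sox18 and Erg, had fold changes below 0. Sox17 (chr1:4490931-4497354, minus strand), a factor of arterial endothelium, stood at 30.9, 45.1, 31.1, 32.7 and 33 in wild-type and from 11.9 (median 17.3) to 32.2 in knockout libraries. Knockout replicate 11 alone reached the wild-type range, and the other 5 lay below it (−0.89, SE 0.27, interval −1.46 to −0.32, adjusted p = 0.108). Its summed reads were 112 in wild-type and 209 in knockout libraries, and its exons overlap Gm37587. Sox18, which acts in blood and early lymphatic endothelium, was at 127 ± 29.6 and 87 ± 27.7, also with 5 of 6 knockout libraries below all wild-type libraries (−0.56, adjusted p = 0.145). Erg, the ETS factor that maintains endothelial identity, was at 90.2 ± 29.4 and 75.2 ± 29.7 (−0.31, adjusted p = 0.514). Of 16 other endothelial transcription factors, 15 were tested, 2 positive and 13 negative (median −0.41, or −0.25 without knockout replicates 9 and 12), and 0 passed. By smallest p they were Klf4, a shear-stress factor that differentiating keratinocytes also express (1321 ± 371 and 2234 ± 659, 0.76, SE 0.22), Hhex (113 ± 25.5 and 69 ± 19.1, −0.72, SE 0.21) and Ets1 (469 ± 72.7 and 327 ± 86.9, −0.55, SE 0.20), with adjusted p of 0.108, 0.108 and 0.132.

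The intervals of Lyve1, Flt4 and Prox1 included 0, and that of Prox1 was wide. Lyve1, the hyaluronan receptor of lymphatic capillaries, stood at 483, 663, 610.4, 693 and 541 in wild-type and from 367 (median 606) to 729.8 in knockout libraries (−0.05, interval −0.41 to 0.31). Knockout replicate 9 was its lowest library and replicate 12, at 546, lay within the wild-type range; without knockout replicate 9 the fold change was 0.077, and without wild-type replicate 5 it was 0.0050. Flt4 stood at 102, 126, 95.6, 118 and 133 and from 54 (median 99.5) to 173 (−0.15, interval −0.69 to 0.39), and the 2 highest libraries were knockout replicates 10 (152) and 11 (173); without knockout replicate 9 it was at 0.032. Prox1 was near the detection floor, with 36 reads over the wild-type and 143 over the knockout libraries. Its levels were 5.44, 9.03, 13.3, 14.5 and 4.71 in wild-type and 3.47 (median 11.7) to 24.1 in knockout libraries (0.32, interval −0.63 to 1.26), and its exons overlap Prox1os. The Prox1 mean was 9.41 in wild-type and 12.5 in knockout skin, so it passed the filter of 10 only through the knockout group. With a minimum mean of 50, which leaves Prox1 out, the lymphatic median was −0.15.

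Pdpn, podoplanin, a mucin-type surface glycoprotein, was the one lymphatic member whose interval lay below 0. It stood at 1965, 1728, 1444, 2032 and 2173 in wild-type and from 774 (median 1492) to 1787 in knockout libraries. Knockout replicates 9 (820.0) and 12 (774) were far below the others (−0.55, SE 0.23, interval −1.03 to −0.06, adjusted p = 0.166). Without them the fold change was −0.22. Per kilobase of exon, Pdpn was the most abundant member, at 1028 ± 158 in wild-type and 732 ± 237 in knockout skin, while Lyve1 was at 205, Flt4 at 14 and Prox1 at 1.12 per kilobase in wild-type skin. Whether the Pdpn reads came from lymphatic endothelium, fibroblasts or keratinocytes was not tested.

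Other lymphatic pathway genes mostly had a lower mean log2 level in knockout skin: of 14 listed, 12 were tested, 11 negative and 1 positive (median −0.26, or −0.03 without knockout replicates 9 and 12), and 0 passed. Vegfd, a ligand of Flt4, listed in the table as Figf, was at 153 ± 18.1 in wild-type and 97.4 ± 20.7 in knockout skin (−0.67, SE 0.16, interval −1.02 to −0.32, adjusted p = 0.108). All 6 knockout libraries (75.7 to 126) lay below all wild-type libraries (133 to 177), as in 1.29% of all genes tested. Replicate 9, at 115, was among the higher knockout libraries. Reln, a matrix glycoprotein of lymphatic endothelium, was at 31.4 ± 11.1 and 61.5 ± 16.8 (0.98, SE 0.26). Thy1, a marker of fibroblasts and T cells that lymphatic endothelium can carry, was at 1518 ± 193 and 956 ± 258 (−0.70, SE 0.19). Both had an adjusted p of 0.108.

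Among the inducible adhesion genes, Sele and Vcam1 had the widest spread of any member between mice of one genotype. Sele (chr1:164048234-164057677, plus strand), which is made when cytokines activate endothelium, stood at 30.9, 67.7, 112, 174 and 89.4 in wild-type and from 22.2 (median 124) to 258 in knockout libraries. Knockout replicate 9 was the lowest of all and replicate 11 the highest, and without wild-type replicate 2 the fold change was −0.046. Means were 94.9 ± 53.6 and 126 ± 79.3 (0.30, SE 0.54, interval −0.86 to 1.46), with coefficients of variation of 56.4% and 62.7%; for Vcam1 they were 54.2% and 69.3%. Vcam1, the ligand of integrin alpha 4, stood at 111, 189.5, 467, 305 and 198 in wild-type and from 85.7 (median 139.9) to 420.0 in knockout libraries (−0.40, interval −1.34 to 0.55). Its highest libraries were wild-type replicate 4, which was the lowest of its group in 13 pan-endothelial genes, and knockout replicate 8.

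Selp (chr1:164115264-164150026, plus strand), stored ready-made in endothelial granules, stood at 365, 713, 711, 1010 and 640.2 in wild-type and from 222 (median 595) to 831 in knockout libraries (−0.41, interval −1.12 to 0.30). Of the platelet markers, Gp9, Gp1ba, Gp5 and Gp6 were at 0 or near it, with 11.0 the highest level in any library, while the summed level of all 8 platelet markers, led by Pf4, ran from 753 to 1358 over wild-type mice and from 567.8 to 982 over knockout mice. Icam1, the ligand of leukocyte beta 2 integrins, stood at 323, 587, 372, 511 and 436 and from 229 (median 383) to 435 (−0.36, interval −0.79 to 0.07). Wild-type replicate 2 was the lowest wild-type library and knockout replicate 9 the lowest knockout library in all 4 adhesion genes. Without knockout replicates 9 and 12, Sele was at 0.93, Selp at 0.04, Vcam1 at 0.04 and Icam1 at −0.11, with adjusted p of 0.383 or more. In that fit 1 of the 4 had an unadjusted limma p under 0.05, higher in knockout skin, and 12.5% of all genes had one in either direction.

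The leukocyte partners of these molecules had a lower mean log2 level in knockout skin in 9 of 10 cases (median −0.44, or −0.12 without knockout replicates 9 and 12), and 0 passed. Selplg, the P-selectin ligand, was at 1061 ± 240.1 in wild-type and 607 ± 230.1 in knockout skin (−0.87, SE 0.25, adjusted p = 0.108). Itgal, the alpha chain of the Icam1 receptor LFA-1, was at 479.8 ± 72 and 311 ± 131 (−0.73, SE 0.27, adjusted p = 0.142). The summed leukocyte markers ran from 16334 to 25880 over wild-type mice and from 9264 to 18900 over knockout mice, and their part in these values was not tested. Of 15 listed cytokines, receptors and components of the NF-kB pathway, which controls adhesion genes and includes its own inhibitors Nfkbia and Tnfaip3, 13 were tested, 11 negative and 2 positive (median −0.45, or −0.04 without knockout replicates 9 and 12), with 0 called. Ltb, lymphotoxin beta, was at 45.7 ± 23.2 and 14.6 ± 8.9 (−1.67, SE 0.49), Il1a at 641 ± 87.2 and 419.8 ± 196 (−0.72, SE 0.26) and Tnf at 393 ± 127 and 205 ± 145 (−1.33, SE 0.53). Tnf was at 47.6 and 48.2 in knockout replicates 9 and 12 and at 134 to 355 in the other 4 knockout libraries.

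To ask whether lymphatic and adhesion genes departed from the pan-endothelial genes of the same skin, each gene was also fitted after subtracting the mean log2 level of those 25 genes in its library. On this scale the median of all genes tested was 0.50, because a mean that is lower in knockout skin is subtracted from every gene. The 4 adhesion genes lay at 0.79 for Sele (interval −0.11 to 1.69), 0.08 for Selp (−0.46 to 0.61), 0.09 for Vcam1 (−0.71 to 0.89) and 0.13 for Icam1 (−0.27 to 0.52). None was called by limma (0.0151% of all genes), and each of the 4 intervals included 0. With array weights Sele (0.96, adjusted p = 0.0173) and Lyve1 (0.51, adjusted p = 0.0145) were called higher, as were 39.0% of all genes; no other alternative called either, and the highest adjusted p of each was 0.955. Among lymphatic genes, Lyve1 was at 0.44 (0.01 to 0.86), Flt4 at 0.34 (−0.17 to 0.84) and Prox1 at 0.80 (−0.18 to 1.78). The interval of Lyve1 just cleared 0, but its adjusted p was 0.124 and 37.9% of all genes had an unadjusted p under 0.05 in that direction. Pdpn, at −0.06 (−0.47 to 0.35), lay closest to the pan-endothelial mean, and was at 0.026 with quantile normalization. Without wild-type replicate 2 the relative values were 0.00063 for Pdpn, −0.090 for Selp and −0.12 for Vcam1. The Vcam1 value was also below 0 without wild-type replicate 3 (−0.026) or knockout replicate 8 (−0.10) or 11 (−0.033).

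**Figure D4:**
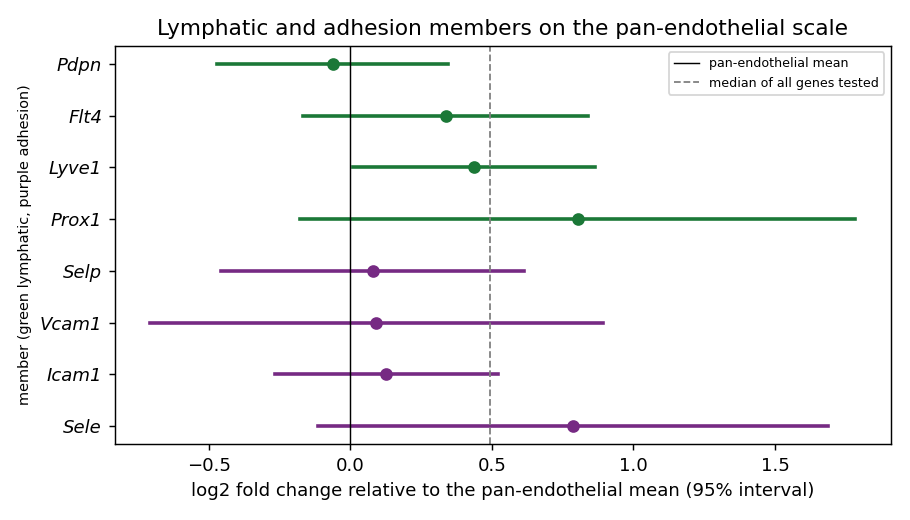
Log2 fold change of the lymphatic (green) and adhesion (purple) genes relative to the pan-endothelial mean of the same library, with 95% intervals (solid line, pan-endothelial mean; dashed line, median of all genes tested at 0.50). Pdpn, Selp, Vcam1 and Icam1 sit near the solid line, and Lyve1, Flt4, Prox1 and Sele lie between 0.34 and 0.80.

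Levels compared per kilobase of exon placed the members over a wide range in wild-type skin. After Pdpn came Plvap at 738 ± 158, Eng at 236, Lyve1 at 205 and Cdh5 at 200.1 normalized counts per kilobase. Eng, Lyve1 and Cdh5 did not differ beyond their spread. Selp was at 156 and Pecam1 at 148, Icam1 at 102, Sele at 32.6 and Vcam1 at 28.6. Prox1, at 1.12, was the lowest member with reads. In knockout skin the corresponding levels were 551 ± 172 for Plvap, 182 for Eng, 200.4 for Lyve1 and 149 for Cdh5, so Lyve1 stood above Eng in the knockout means and below it in the wild-type means.

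**Figure D5:**
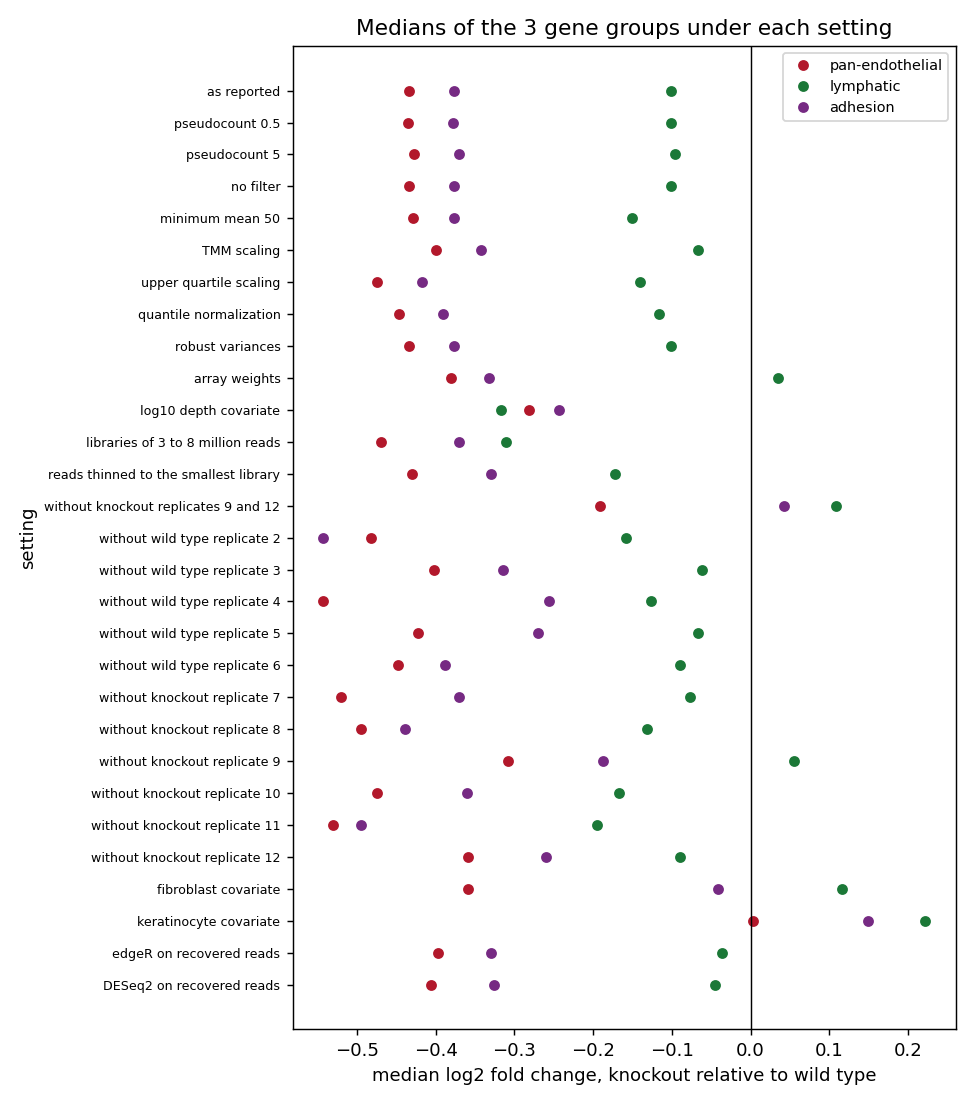
Median log2 fold change (knockout relative to wild type) of the pan-endothelial (red), lymphatic (green) and adhesion (purple) genes under the reported fit and each alternative setting (rows). The pan-endothelial median stays below 0 in every setting but that with keratinocyte markers as a covariate, where it is 0.00, and without knockout replicates 9 and 12 it is −0.19.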

How the data were processed

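RNA-seq of back skin from 5 wild-type and 6 Trex2 knockout mice was analysed from one table of 38406 gene symbols. The authors deposited normalized counts, a signal in which each library's reads are divided by a DESeq2 size factor. The submitters' processing notes name TopHat2 2.0.8, featureCounts 1.4.6, DESeq2 1.8.1 and GRCm38; which annotation and strand option were used is not given in the sources used here; overlapping and antisense genes cannot be told apart. Whole reads were recovered from the deposited normalized counts (100% of values within 0.01). The labels call the libraries biological replicates, and no pair was closer than 3.69 times sampling noise (chi-square per degree of freedom).

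Genes with a mean of at least 10 (13215) were tested on log2(normalized count + 1) with limma 3.58.1 (trended variances, R 4.3.3) and Benjamini-Hochberg adjustment over all of them, threshold 0.05. The relative fit subtracted each library's mean over the pan-endothelial members. The recovered reads were also fitted with edgeR 4.0.16 and DESeq2 1.42.0. On simulated data with 200 of 13215 genes changed by a log2 of 1 or 2, limma recovered 88% at 1 and 100% at 2. The pan-endothelial genes were lowered there as well, by a log2 of less than 1, and their recovery is not given here. In the same data limma called 11 unchanged genes. Whether these rates hold at the spread between the mice studied here was not tested. In the real data Aplnr, at a log2 fold change of −1.31, was not called.

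All members are named; of other lists, up to 3 genes of smallest p, and of marker lists up to 3 of highest mean plus those a result turns on. One gene that this rule names is not reported here. The members and lists were chosen with earlier results of these data known, and a list is described by its counts and median without a test. Positions and exon lengths are from GENCODE M21 (GRCm38). There were 28 alternative settings: pseudocount, filter, scaling, variance model, depth, covariates, left-out libraries and the count tools.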

Additional observations from a re-analysis of the deposited data

Results flagged for a closer look

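Sox17 in wild-type replicate 3, at 45.1 normalized counts, stood apart from the other 4 wild-type libraries, of which the nearest was at 33.0; the gap was 0.853 of the range of the group. Wild-type replicate 3 was the shallowest library, and leaving it out moved the Sox17 fold change from −0.89 to −0.79. Of 66 groups of libraries examined, 1 met the criterion, which chance meets in about 1 of 20.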

How the results depend on the processing

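The relative fit was not run with edgeR or DESeq2. No paired analysis was possible because the groups share no replicate numbers. The number of genes called was 2 as reported, 6 with array weights, 4 with edgeR and 617 with DESeq2, and 2 to 740 when 1 library was left out, the highest without wild-type replicate 4. In the relative fit it was 2 as reported, 5243 with array weights, 3 with libraries of 3000000 to 8000000 reads and 2 to 3939 with 1 library left out. The cause was not tested. Without 1 library the median was −0.54 to −0.31 for pan-endothelial, −0.19 to 0.055 for lymphatic and −0.54 to −0.19 for adhesion genes. Of 1129 member values under alternatives, 1062 kept direction and call, 59 turned direction and 8 passed the threshold.

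With the mean log2 level of the keratinocyte markers as a covariate the pan-endothelial median was 0.0034, and fold changes were 0.13 for Pecam1, 0.086 for Cdh5, 0.16 for Kdr, 0.023 for Flt1, 0.12 for Tek, 0.042 for Tie1, 0.0076 for Eng, 0.12 for Vwf, 0.056 for Plvap, 0.25 for Erg, 0.0034 for Clec14a, 0.24 for S1pr1, 0.24 for Flt4, 0.20 for Lyve1, 0.23 for Selp, 0.073 for Icam1 and, relative to the pan-endothelial mean, −0.024 for Vcam1. With fibroblast markers they were 0.26 for Tek, 0.10 for Flt4, 0.13 for Lyve1 and 0.043 for Selp. Without knockout replicates 9 and 12 they were 0.12 for Tek, 0.0034 for Vwf, 0.022 for Erg, 0.0099 for S1pr1, 0.090 for Flt4, 0.13 for Lyve1, 0.041 for Selp, 0.044 for Vcam1 and, relative, 0.020 for Pdpn. Array weights gave 0.063 for Tek, 0.065 for Flt4 and 0.0047 for Lyve1, and relative values past the threshold for Lyve1 (0.51, limma adjusted p = 0.0145) and Sele (0.96, 0.0173), beside 39.0% of all genes called higher. TMM scaling gave 0.023 for Tek, and quantile normalization a relative 0.026 for Pdpn. With log10 depth as a covariate, values were 0.0036 for Ramp2, −0.089 for Ptprb, −0.31 for Prox1, −0.097 for Sele and a relative −0.28 for Vcam1. In the 7 libraries of that depth they were −0.031 for Ptprb, −0.078 for Prox1, −0.28 for Sele and, relative, −0.072 for Flt4 and −0.041 for Selp. With 1 library left out, direction turned within −0.13 to 0.078 for Tek, −0.30 to 0.032 for Flt4, −0.12 to 0.077 for Lyve1 and −0.046 to 0.73 for Sele, and, relative, within −0.14 to 0.00063 for Pdpn, −0.090 to 0.20 for Selp and −0.12 to 0.45 for Vcam1. Depth limits Prox1 most, at 36 wild-type reads.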
